A study of Mus musculus with 6 samples.

Results

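The genes described here encode the core of the ESCRT machinery that pinches off and reseals membranes. They are the ESCRT-III subunit genes Chmp1a, Chmp2a, Chmp2b, Chmp3, Chmp4b and Chmp5, the genes of the ATPases Vps4a and Vps4b, and the recruiter genes Pdcd6ip (ALIX) and Tsg101. The rule that picks these 10 genes lists them by name and uses no measured value, although it was written with earlier results of these data known. They were taken out of 32903 gene symbols in the deposited table. All 10 were among the 12520 genes tested, and none was below 39.5 TPM in any library, so the expression limit of 0.5 TPM removed no member. TPM is a transcript's abundance per unit of its length relative to a fixed total for the library, so levels of different genes can be set side by side.

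The study asked which genes rise in MuTuDC1940 cells, a mouse dendritic cell line, after stimulation with poly(I:C), a synthetic double-stranded RNA that mimics viral RNA. Untreated cells were set against cells exposed for 18 hours to 5 µg/ml poly(I:C), with 3 samples of each kind in the series. Of these, 2 libraries per group were compared, those headed NT01 and NT02 (untreated) and PolyIC01 and PolyIC02 (treated), because the table's header does not settle the group of the other 2 columns. All groups are the same cell line, and whether samples within a group came from separate cultures is not in the labels, so each p-value reflects only how far these libraries differ, possibly for technical reasons. APOL7C, a pore-forming protein, and the rupture of phagosomes are named in the series title, which is why genes of membrane resealing are of interest in this cell line.

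ESCRT complexes act in sequence: ESCRT-0, ESCRT-I and ESCRT-II gather ubiquitylated cargo, and ESCRT-III subunits polymerise into filaments that draw a membrane neck shut. Vps4 then uses ATP to take the filaments apart and return the subunits to the cytosol. The same machinery buds vesicles into endosomes, ends cell division and closes small wounds in the plasma membrane, endosomes and lysosomes. ALIX and Tsg101 are its usual entry points, and in wounded membranes calcium acts through ALIX and its partner ALG-2. In dendritic cells that cross-present antigen, ESCRT-III has been described as resealing leaking endosomes and phagosomes.

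Libraries carried markers of the labelled cell type and a response to the treatment. All 12 markers of type 1 conventional dendritic cells were in the tested set and summed to between 4019 and 4157 TPM per library, although Itgae lay between 0.490 and 0.918 TPM. Of these 12 markers 6 rose, 4 fell and 2 did not pass, where 28.4% of all tested genes rose and 32.4% fell. By mean over the 4 libraries the highest were Irf8 (2482 and 2477 TPM untreated, 2558 and 2639 TPM treated), Wdfy4 (318 and 315 TPM, then 311 and 302 TPM) and Cd24a, which fell from 383 and 381 to 141 and 144 TPM (log2 fold change -1.42). Irf8 alone supplied most of the summed marker TPM, and its rise passed narrowly (log2 fold change 0.07, adjusted p = 0.0497 by limma). That call was lost under 8 of 13 alternative settings. The other markers that fell were Tlr3 (log2 fold change -0.81), Flt3 (-0.74) and Batf3 (-0.30). Besides Irf8, those that rose were Xcr1 (log2 fold change 0.78), Zbtb46 (0.35), Ly75 (0.25), Clec9a (0.23) and Cadm1 (0.11). All 7 poly(I:C) response genes rose, with log2 fold changes from 2.87 to 7.10. Among markers of B cells, T cells and plasmacytoid dendritic cells 3 were tested. Of these Ms4a1 rose from 3.18 and 3.58 to 6.74 and 5.76 TPM and Cd3d from 1.01 and 0.678 to 1.59 and 1.47 TPM, while Tcf4, at 8.06 and 6.40 TPM and then 6.75 and 6.22 TPM, did not pass. The Cd3d call was lost without NT02 (adjusted p = 0.0586 in limma) and without PolyIC01 (0.0780), and the T cell markers Cd3e and Cd3g were listed at 0 in all 4 libraries. The 10 macrophage and monocyte markers summed to 319 and 314 TPM in untreated and 613 and 632 TPM in treated libraries. Of the 8 of them tested, 6 rose and 1 fell, against 28.4% and 32.4% of all tested genes. The fall was that of Lyz2, from 218 and 217 to 98.9 and 107 TPM. Among complement genes, C1qa (37.2 and 36.8 to 168 and 174 TPM) and C1qc (31.0 and 29.2 to 111 and 115 TPM) rose. C1qb rose from 12.8 and 11.8 to 122 and 127 TPM and Ms4a7 from 10.3 and 9.19 to 94.9 and 89.6 TPM. Fcgr1 rose from 0.356 and 0.299 to 4.76 and 4.66 TPM. Csf1r was listed at 0 in both treated libraries and Mertk did not exceed 0.039 TPM. The part of all these markers in the ESCRT results was not tested. In bulk RNA, a change in the share of cells and a change in RNA per cell cannot be told apart.

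The ESCRT genes did not move as a block. Chmp4b and Chmp5 rose, Vps4a, Chmp2a, Chmp1a and Tsg101 fell by smaller amounts, and Chmp2b, Chmp3, Vps4b and Pdcd6ip did not pass the test. A gene was called where its adjusted p was under 0.05 in limma (Benjamini-Hochberg over all 12520 genes), and fold changes are on the log2(TPM + 1) scale. Thus 2 of 10 members rose and 4 fell, where 28.4% of all tested genes rose and 32.4% fell. In all 6 of 10 members passed, against 60.8% of tested genes, so the share of members called was close to the background. No member moved 2-fold, and of all tested genes only 5.69% rose and 2.76% fell at least 2-fold on that scale. The median log2 fold change was -0.01 over the 10 members and -0.02 over all tested genes, and the median size of change regardless of sign was 0.15 and 0.27. With 2 libraries on each side the smallest exact permutation p is 0.333 (two-sided), so that test can separate no gene.

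**Figure D1:**
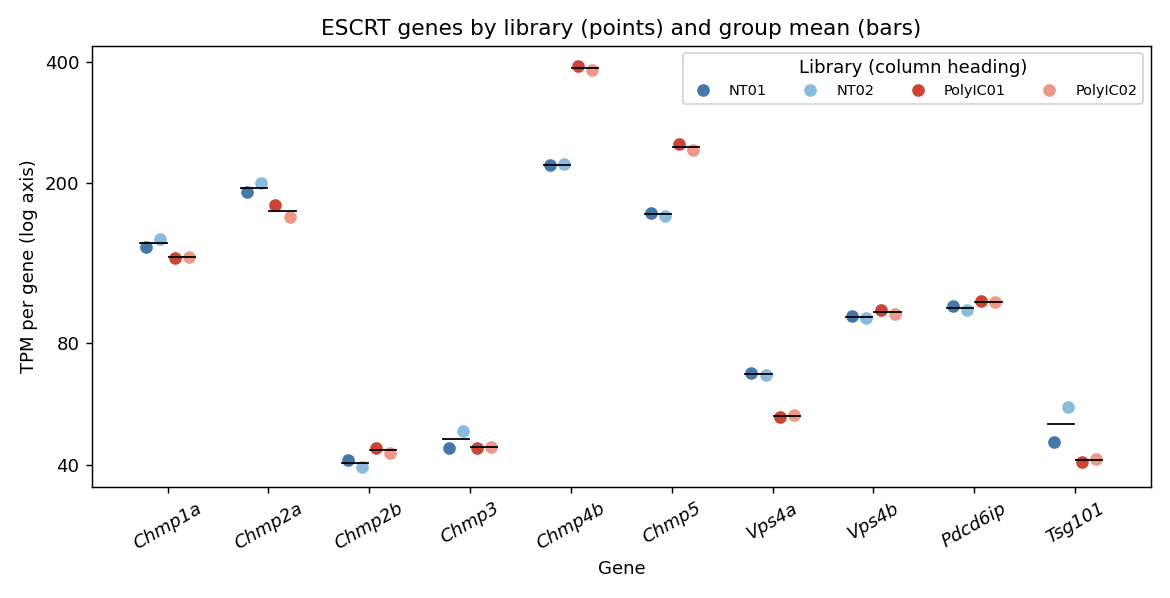
TPM (log axis) of the 10 ESCRT genes in each of the 4 libraries, coloured by column heading, with a bar at each group mean (n = 2). Chmp4b and Chmp5 stand clearly higher in both treated libraries, Vps4a lower, and the Chmp3 values of the groups overlap.

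Chmp4b, whose product is the main building block of the ESCRT-III filament, was the most abundant member in both groups and changed most. It reached 222 and 223 TPM without poly(I:C) and 391 and 382 TPM with it. The groups were far apart and the libraries of each lay close together. Mean TPM rose 1.74-fold, from 223 ± 0.326 to 387 ± 6.62 (SD, n = 2 per group here and below), and the limma fit gave a log2 fold change of 0.79 ± 0.025 (SE) with an adjusted p = 8.25e-06. Of all tested genes, 1024 (8.18%) had a larger log2 fold change, so the rise of Chmp4b was in the upper range but far from the interferon-response genes. The call held under all 13 alternative settings, with log2 fold changes from 0.78 to 0.82.

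Chmp5 encodes a late-acting ESCRT-III subunit that binds the Vps4 activator Vta1. Its level was 169 and 166 TPM without poly(I:C) and 250 and 242 TPM with it. Both treated values exceeded both untreated ones by more than the spread within either group. The ratio of means was 1.47, for a log2 fold change of 0.55 ± 0.028 (SE) and an adjusted p = 3.61e-05 by limma, and 12.9% of tested genes had a larger log2 fold change. This call too held under all 13 settings, between 0.53 and 0.58. In untreated cells Chmp5 was the third most abundant member after Chmp4b and Chmp2a. In treated cells it came second.

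Chmp2a and Chmp3 encode the subunits that join a Chmp4 filament late and bring in Vps4, and Chmp2b is a paralogue of Chmp2a. Chmp2a read 190 and 200 TPM without poly(I:C) and 177 and 165 TPM with it, so the groups did not overlap but were not far apart beside the spread within a group. It fell by 12.3% in mean TPM (log2 fold change -0.19 ± 0.044 SE, adjusted p = 0.0128 by limma); without trend and robust moderation the call was lost (adjusted p = 0.0517 in limma). Chmp2b was at 40.9 and 39.5 TPM untreated and 44.1 and 42.7 TPM treated (log2 fold change 0.11 ± 0.042 SE, adjusted p = 0.0730 by limma). It passed when libraries were rescaled by TMM factors (adjusted p = 0.0219 in limma) or centred on their median (0.0433). Chmp3 was at 43.9 and 48.5 TPM untreated and 44.1 and 44.3 TPM treated, values that overlap (log2 fold change -0.06 ± 0.056 SE, adjusted p = 0.390 by limma).

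Chmp1a encodes a subunit of the late, disassembling end of the filament. Its values were 139 and 145 TPM without poly(I:C) and 130 and 131 TPM with it. The mean fell by 7.84% (log2 fold change -0.12 ± 0.033 SE, adjusted p = 0.0260 by limma). This is the smallest change among the called members, and it failed the threshold under 7 of 13 settings, with adjusted p up to 0.172 in limma. Among these settings were those without NT02 (adjusted p = 0.115 in limma), without PolyIC01 (0.0949) and without PolyIC02 (0.0695).

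The unequal changes altered the make-up of ESCRT-III transcripts. The 6 Chmp members together went from 805 and 822 TPM in the untreated libraries to 1036 and 1007 TPM in the treated ones, and the total without Chmp4b and Chmp5 went from 414 and 433 to 395 and 383 TPM. Chmp4b made up 27.6% and 27.1% of the 6-gene total in untreated cells and 37.8% and 37.9% in treated cells. Chmp2a made up 23.7% and 24.3% and then 17.1% and 16.4%. The Chmp4b level was 1.17 and 1.12 times that of Chmp2a in the untreated libraries and 2.21 and 2.31 times in the treated ones. These are ratios of transcript levels, and each of these quantities separated the groups without overlap (exact permutation p = 0.333, two-sided, the smallest possible).

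**Figure D2:**
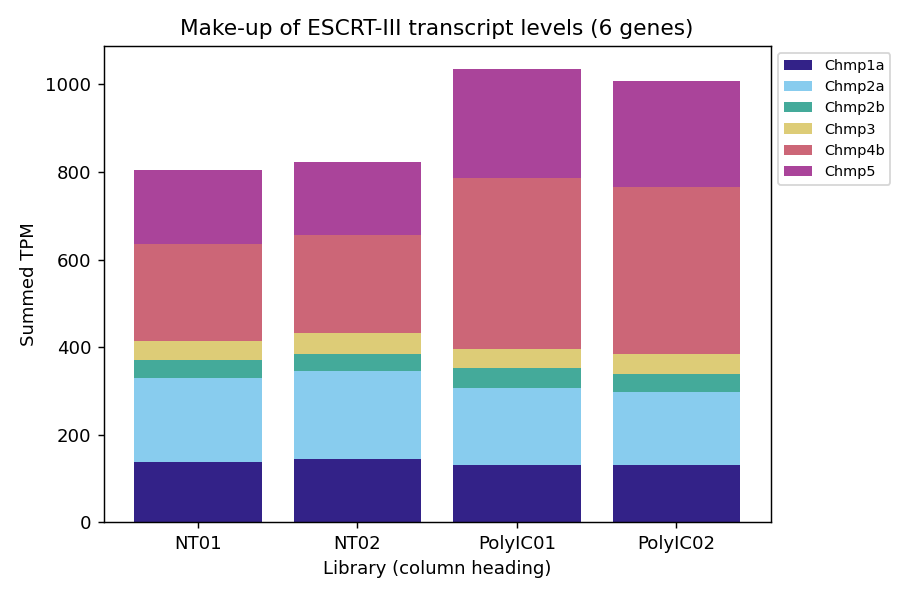
Summed TPM of the 6 ESCRT-III members, stacked by gene, in each library. The stacks reach 805 and 822 TPM without and 1036 and 1007 TPM with poly(I:C), and the Chmp4b and Chmp5 segments account for the added height.

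Vps4a and Vps4b are paralogous AAA ATPases that recycle ESCRT-III, and their levels diverged. Vps4a was at 67.5 and 66.7 TPM untreated and at 52.5 and 53.2 TPM treated. Libraries within each group were nearly equal, and the groups were well apart. Vps4a fell by 21.2% in mean TPM (log2 fold change -0.34 ± 0.033 SE, adjusted p = 0.000439 by limma), the deepest fall among the members, and the call held under all 13 settings (-0.35 to -0.31). Vps4b was at 93.7 and 92.5 TPM untreated and 96.8 and 94.7 TPM treated (log2 fold change 0.04 ± 0.030 SE, adjusted p = 0.294 by limma), and it passed under none of the 13 settings. Vps4a therefore supplied 41.9% of the Vps4 total in both untreated libraries and 35.2% and 36.0% in the treated ones (exact permutation p = 0.333, two-sided). The ESCRT-III members summed to 4.99 and 5.16 times the Vps4 total in untreated cells and to 6.94 and 6.81 times in treated cells.

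Pdcd6ip encodes ALIX, a scaffold that binds Chmp4 proteins directly and so starts filaments. It was at 99.0 and 96.8 TPM untreated and 102 and 101 TPM treated (log2 fold change 0.05 ± 0.030 SE, adjusted p = 0.173 by limma). Its lower treated value exceeded its higher untreated one, a pattern that 38.9% of all tested genes shared, and 42.4% showed the opposite one. Pdcd6ip passed under none of the 13 settings. Of its 4 transcripts in the table, the leading curated one held 92.1% of the gene's TPM.

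Tsg101, the ubiquitin-binding subunit of ESCRT-I, gave the least settled value. Its values were 45.6 and 55.5 TPM without poly(I:C) and 40.7 and 41.2 TPM with it. The treated libraries were close to each other, while the untreated ones differed by more than NT01 differed from either treated library. The fitted log2 fold change was -0.29 ± 0.094 (SE), or -0.15 without NT02 and -0.43 without NT01, with an adjusted p = 0.0435 by limma, and this call was lost under 8 of 13 settings, among them without PolyIC01 (adjusted p = 0.180 in limma) and without PolyIC02 (0.153).

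The 3 Tsg101 transcripts of the table did not move together. A predicted non-coding transcript held 62.2% of the gene's TPM, at 32.3 and 33.1 TPM untreated and 25.4 and 23.1 TPM treated. A predicted mRNA was at 10.1 and 16.2 TPM untreated and 10.6 and 14.6 TPM treated, and the curated mRNA at 3.21 and 6.14 TPM and then 4.71 and 3.61 TPM. The mRNA transcripts summed to 13.3 and 22.4 TPM without and 15.3 and 18.2 TPM with poly(I:C), and these groups overlap. Summed over mRNA transcripts alone, the log2 fold change was -0.05 (adjusted p = 0.886 in limma), an alternative chosen after seeing the data. Of the 3 transcripts, the non-coding one alone had both treated values below both untreated ones, and how reads were divided among the transcripts is uncertain. Uevld, a paralogue that overlaps Tsg101 on the same strand of chromosome 7, was at 9.40 and 8.62 TPM untreated and 5.45 and 5.55 TPM treated (log2 fold change -0.62), and how reads of the shared stretch were divided was not tested.

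**Figure D3:**
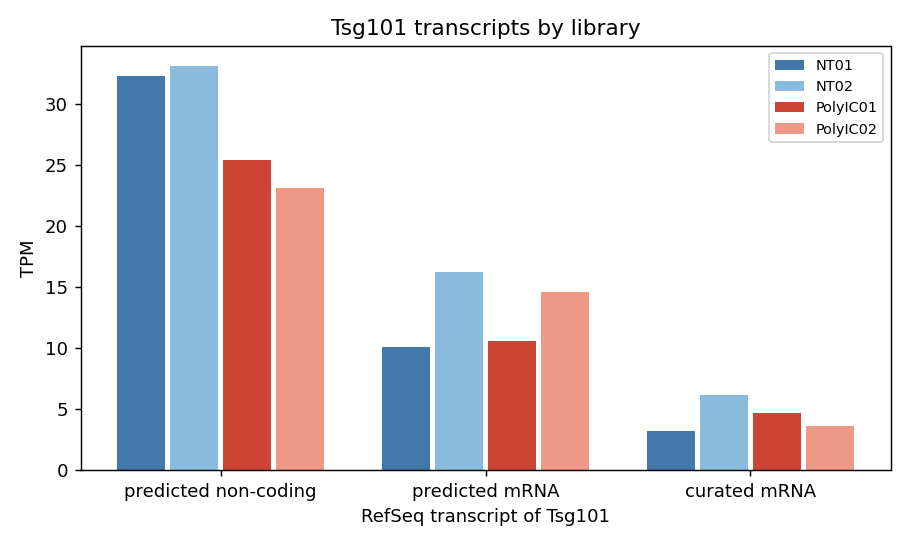
TPM of the 3 Tsg101 transcripts in each library, 1 bar per library. The predicted non-coding transcript is lower in both treated libraries (25.4 and 23.1 TPM) than in the untreated ones (32.3 and 33.1 TPM), while the bars of both mRNA transcripts overlap between the groups.

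Other members rest on simpler models: Chmp1a, Chmp2a, Chmp2b, Chmp4b, Chmp5, Vps4a and Vps4b each have 1 transcript, a curated one. In the order of levels, Tsg101 and Chmp3 overlapped in untreated cells and every other pair of neighbours was apart. In treated cells the ranges of neighbours did not overlap, although the lower Chmp3 value (44.09 TPM) was close to the higher Chmp2b value (44.07 TPM). All 10 genes were well expressed: from 3.72% (Chmp4b) to 29.4% (Chmp2b) of tested genes had a higher mean TPM.

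The members lie on 8 different chromosomes. In GRCm38.p6 (RefSeq) Chmp4b spans chromosome 2 from 154657026 to 154694783, Chmp5 chromosome 4 from 40948553 to 40965302, and Vps4a chromosome 8 from 107031269 to 107045760. Chmp1a also lies on chromosome 8, while Chmp2a and Tsg101 share chromosome 7. Chmp5 stands head to head with Bag1, a co-chaperone gene on the other strand, with 258 bases between them. Bag1 was at 186 and 184 TPM untreated and 207 and 215 TPM treated, a rise of 0.19 ± 0.030 (SE) in log2 units (adjusted p = 0.00291 by limma). Of the 20 nearest tested genes on either side of the members, 3 rose, 5 fell and 12 did not pass. The shares over all tested genes were 28.4% that rose and 32.4% that fell. Chmp2a lies between Trim28 (log2 fold change -0.32) and Ube2m (-0.29), which both fell.

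The stretches just upstream of the members with the clearest changes are shown because Chmp4b and Chmp5 rose together while Vps4a fell, and that of Pdcd6ip because it holds the only motif found. Each is the part of the 250 bases before the start used in RefSeq's promoter table (GRCm38.p6) that lies outside the gene's span, 5′ to 3′ on the gene's strand. These are 250 bases for Chmp4b, Chmp5 and Vps4a and 230 for Pdcd6ip, whose start in that table lies 20 bases inside the span. Capitals mark CpG dinucleotides in the stretches of Chmp4b, Chmp5 and Vps4a and the motif TCACGTGA in that of Pdcd6ip.
Chmp4b (chr2:154656776-154657025, plus strand): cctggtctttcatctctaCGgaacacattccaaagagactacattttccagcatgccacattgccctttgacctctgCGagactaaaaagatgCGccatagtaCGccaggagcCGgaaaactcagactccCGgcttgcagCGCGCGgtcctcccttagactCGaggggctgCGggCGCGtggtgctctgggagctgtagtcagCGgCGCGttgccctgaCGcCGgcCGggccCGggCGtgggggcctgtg
Chmp5 (chr4:40948303-40948552, plus strand): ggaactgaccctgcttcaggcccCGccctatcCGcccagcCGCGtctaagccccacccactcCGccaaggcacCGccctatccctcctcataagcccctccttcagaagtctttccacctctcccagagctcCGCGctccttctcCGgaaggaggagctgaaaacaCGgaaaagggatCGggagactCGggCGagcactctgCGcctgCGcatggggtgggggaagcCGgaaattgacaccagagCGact
Vps4a (chr8:107031019-107031268, plus strand): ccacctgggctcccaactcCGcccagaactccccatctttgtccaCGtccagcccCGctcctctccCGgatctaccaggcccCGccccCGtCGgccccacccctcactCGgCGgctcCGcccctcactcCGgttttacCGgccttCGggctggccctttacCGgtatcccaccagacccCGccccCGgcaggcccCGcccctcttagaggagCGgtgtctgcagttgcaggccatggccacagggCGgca
Pdcd6ip (chr9:113708280-113708509, minus strand): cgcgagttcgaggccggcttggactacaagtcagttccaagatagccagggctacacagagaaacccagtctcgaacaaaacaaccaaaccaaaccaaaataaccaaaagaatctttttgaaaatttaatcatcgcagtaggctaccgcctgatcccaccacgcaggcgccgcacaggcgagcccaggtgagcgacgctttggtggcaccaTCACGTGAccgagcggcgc

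G and C made up 62.0% of the stretch of Chmp4b, 63.6% of that of Chmp5, 70.8% of that of Vps4a and 53.9% of that of Pdcd6ip. Those of Chmp4b, Chmp5 and Vps4a hold 21, 17 and 19 CpG. The CpG number of Vps4a, which fell, thus lies between those of Chmp4b and Chmp5, which rose. Its share of G and C is the highest of the stretches shown. These genes were picked for their changes, and whether either feature goes with a change was not tested. Over windows that run from 250 bases before to 50 after the start in the promoter table, which for Tsg101, Chmp3 and Pdcd6ip lies inside the gene's span, the 11 member promoters (Chmp3 has 2) had a median of 62.3% G and C and 26 CpG, against 60.0% and 20 for the 12677 promoters of tested genes. Both strands of these windows were searched for 4 motifs. The core of the interferon-stimulated response element (GAAA, any 2 bases, GAAA) occurs in 3.44% of all 32851 promoters in the table and in none of the 11. The STAT-binding GAS element (TTC, any 3 bases, GAA; 8.30% of promoters) and a kappaB-type site (GGG, any 2 bases, TT, any base, CC; 4.79%) are also in none. TCACGTGA, an E-box of the type found in lysosomal genes (0.974%), lies 19 to 12 bases upstream of the span of Pdcd6ip, which did not pass the test. A match describes letters and not binding, and a missing match says only that these letters are not in the window.

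The rest of the ESCRT pathway also moved in both directions. Of 30 other ESCRT genes, 28 were tested: 13 rose, 8 fell and the other 7 missed the threshold, around a median log2 fold change of 0.08. Of all tested genes 28.4% rose and 32.4% fell. The counts of other ESCRT genes depended on which libraries were used, and fewer rose whichever library was left out, treated or untreated. Over all tested genes, fewer also rose without NT02, PolyIC01 or PolyIC02, but more rose without NT01. Mvb12b and Chmp4c were below the expression limit, and Chmp4c, a paralogue of Chmp4b, reached no more than 0.0308 TPM.

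Mitd1, whose product binds ESCRT-III in the last step of cell division, changed most in this list, from 28.3 and 26.6 TPM untreated to 63.5 and 57.0 TPM treated. With a log2 fold change of 1.10 ± 0.065 (SE) and an adjusted p = 5.94e-05 by limma, it was the only one of the 38 ESCRT genes tested that passed and moved 2-fold on the log2(TPM + 1) scale, as 5.69% of all tested genes did upwards and 2.76% downwards. Cep55, which brings ALIX and Tsg101 to the midbody of dividing cells, went the other way, from 53.9 and 50.3 TPM to 26.2 and 25.9 TPM (a 2-fold fall in mean TPM, log2 fold change -0.97, adjusted p = 3.44e-05 in limma), a call lost with curated transcripts alone (-1.15, adjusted p = 0.0756). Ptpn23 encodes HD-PTP, a relative of ALIX that sorts receptors into endosomal vesicles. It rose from 30.2 and 26.3 TPM to 42.3 and 38.8 TPM (log2 fold change 0.51).

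The early complexes hand cargo to ESCRT-III, and whether they differ from each other was not tested. Their grouping by complex follows common knowledge and was made after the values were seen, as was the choice to name Vps25, Snf8, Stam2, Stam, Hgs, Ist1, Chmp6, Vta1 and Ubap1. All 3 ESCRT-II genes fell: Vps36 from 98.3 and 96.3 to 65.7 and 63.7 TPM (log2 fold change -0.58), Vps25 with -0.37 and Snf8 with -0.13. All 3 ESCRT-0 genes rose, by smaller amounts, with log2 fold changes of 0.33 for Stam2, 0.23 for Stam and 0.19 for Hgs. Among all tested genes 28.4% rose and 32.4% fell, so calls in either direction were common. The calls of Snf8 and Stam were each lost under 6 of 13 settings, that of Stam whichever library was left out (adjusted p from 0.0536 to 0.245 in limma), that of Snf8 without NT02 (0.0893) and without PolyIC02 (0.112). With curated transcripts alone Stam2 had a log2 fold change of 0.01 (adjusted p = 0.914 in limma). Within ESCRT-I, Vps28 fell from 136 and 138 to 86.0 and 95.6 TPM (log2 fold change -0.59), while Ubap1 (0.35) and Vps37c (0.43) rose. Vps37c was at 6.71 and 8.83 TPM untreated and 9.97 and 11.6 TPM treated, and its call was lost under 7 of 13 settings, among them without NT01 (log2 fold change 0.26, adjusted p = 0.0703 in limma) and without PolyIC02 (0.156).

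Among the other ESCRT-III genes, Ist1, which helps to recruit Vps4 and spastin, rose (log2 fold change 0.39), a call lost with curated transcripts alone (adjusted p = 0.333 in limma). Chmp6, which links ESCRT-II to Chmp4, fell (-0.37, or -1.02 with curated transcripts alone). Vta1, the activator of Vps4 that Chmp5 binds, rose from 90.8 and 95.9 to 112 and 110 TPM (0.25). Pdcd6, the gene of the calcium sensor ALG-2, was at 57.1 TPM in both untreated libraries and at 60.0 and 55.2 TPM in the treated ones (0.01, adjusted p = 0.872 in limma).

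**Figure D4:**
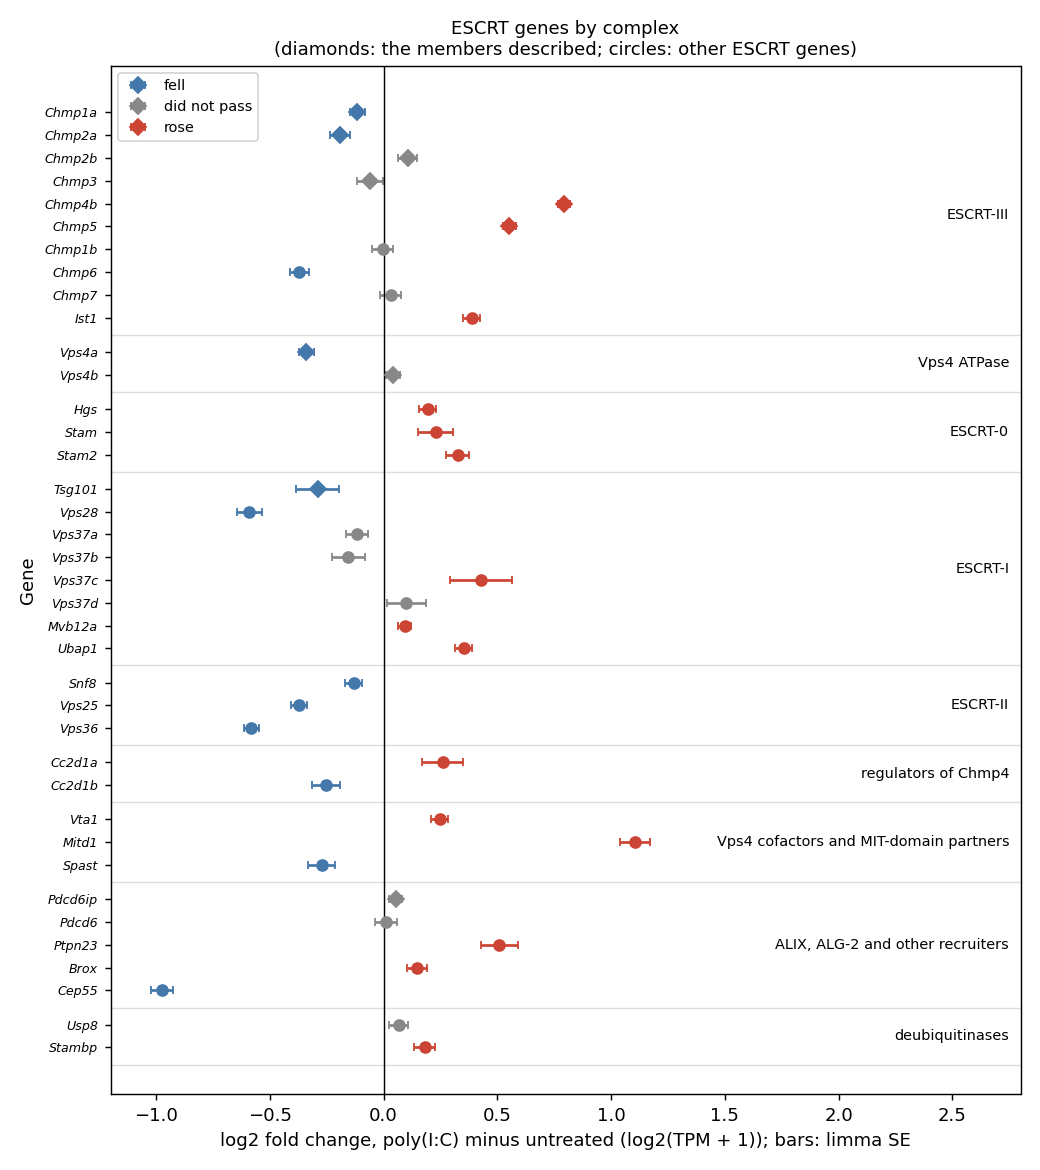
Log2 fold change (log2(TPM + 1), poly(I:C) minus untreated) with its limma SE for the 38 tested ESCRT genes, grouped by complex; diamonds are the 10 members and circles the other genes. Mitd1 lies furthest to the right and Cep55 furthest to the left. Chmp4b and Chmp5 also lie to the right, and Vps4a and the 3 ESCRT-II genes to the left. Of these Snf8 is the nearest to the middle, and no complex with more than 3 tested genes lies on 1 side.

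Membrane repair genes outside ESCRT were read from a pair of further lists. Of 20 genes of annexin, ferlin and calcium-dependent repair of the plasma membrane, 16 were tested; 7 rose and 7 fell (28.4% and 32.4% of all tested genes), around a median log2 fold change of -0.02. The annexins, proteins that bind calcium and membrane lipid at wounds, made up 7 of the tested genes, of which 5 rose and 2 fell. Anxa4 (73.7 and 76.4 to 147 and 143 TPM, log2 fold change 0.94) and Anxa5 (351 and 352 to 573 and 579 TPM, 0.71) rose, as did Anxa7 (0.45), Anxa2 (0.40) and Anxa11 (0.22). Anxa2 lay between 1.31 and 2.43 TPM, and its call was lost without NT01 (adjusted p = 0.0768 in limma) and without PolyIC02 (0.123). Anxa6 (393 and 406 to 225 TPM in both treated libraries, -0.83) and Anxa1 (156 and 155 to 105 and 107 TPM, -0.54) fell. The syntaxin gene Stx4a rose (0.51) and the ferlin gene Myof fell (-0.48), while Dysf was listed at 0 in all 4 libraries.

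More of the genes that respond to damaged lysosomes rose than fell. Of 25 such genes, 23 were tested: 13 rose, 5 of them at least 2-fold, and 2 fell, and the median log2 fold change was 0.20. Of all 12520 tested genes 28.4% rose, 5.69% at least 2-fold, and 32.4% fell. These 5 were the galectin genes Lgals9 (2.69), Lgals8 (1.5) and Lgals3 (1.16), whose products bind sugars exposed on torn vesicles, and the autophagy receptor genes Optn (1.17) and Sqstm1 (1.12). Sqstm1, which encodes p62, went from 326 and 323 to 692 and 721 TPM, and Lgals3 from 1177 and 1185 to 2600 and 2671 TPM. The lipid-transfer gene Osbpl10 fell from 2.82 and 3.12 to 1.38 and 1.72 TPM (-0.64). This list was chosen with earlier results of these data known, as were the other lists. Whether it differs from the ESCRT members was not tested.

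**Figure D5:**
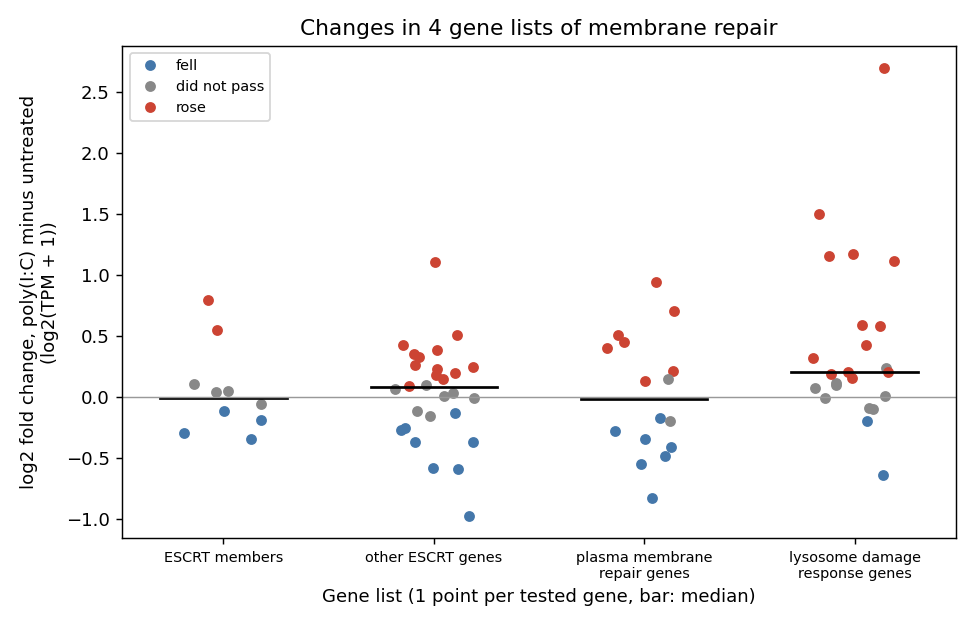
Log2 fold change (log2(TPM + 1), poly(I:C) minus untreated) of each tested gene in 4 lists, with a bar at the median: ESCRT members (10 genes), other ESCRT genes (28), plasma membrane repair genes (16) and lysosome damage response genes (23). Points lie on both sides of 0 in all lists, and the highest, Lgals9 at 2.69, is in the last.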

How the data were processed

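Per the labels' protocols, libraries were directional and made from poly(A)-captured RNA of MuTuDC1940 cells. Kallisto 0.42.4, bcl2fastq 2.20.0.422 and GRCm38 are named, with no role, in the submitters' processing notes. The deposited values are TPM per RefSeq transcript: the file is named for FPKM, but each column used sums to 1000000. Depth is unknown, so neither count tests nor counting intervals apply. The header gives 5 names for 6 value columns; 4 columns have the same group however it is read, and the other 2 columns were not used.

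Of 107384 transcripts, 86722 (80.8%) matched a symbol in the RefSeq table (GRCm38.p6), and TPM were summed per symbol. The 12520 genes that averaged 0.5 TPM or more across these 4 libraries were fitted with limma 3.58.1 in R 4.3.3 (trend, robust) on log2(TPM + 1). With 2 residual degrees of freedom the fit borrows spread across genes. On simulated data of 12143 genes it recovered 100% of genes changed by 0.5 to 3 log2 units, with 7 false calls. The simulated noise is independent between genes, which the real noise may not be, and its size was set by expression level alone. Few genes were changed, none of low level and none by less than 0.5 log2 units. Falls as small as those of the 4 members called were therefore not covered. Tables used pandas 2.3.3 and numpy 2.4.6 under Python 3.11.15, and plots matplotlib 3.10.9.

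Members, lists, tests and alternatives were chosen with earlier results of these data known. Named are all members, up to 6 passing genes per further list with the largest change, and up to 3 markers per list by mean TPM. The genes of the complexes marked in the text, neighbouring genes, Anxa2, Anxa7, Anxa11, Uevld, Pdcd6, Chmp4c, Mvb12b, Dysf, Itgae, Csf1r, Mertk, Cd3e and Cd3g were named after their values were seen. So were the markers Tlr3, Flt3, Batf3, Xcr1, Zbtb46, Ly75, Clec9a, Cadm1, Fcgr1, C1qb and Ms4a7.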

Additional observations from a re-analysis of the deposited data

How the results depend on the processing

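Chmp4b, Chmp5 and Vps4a kept direction and call under all 13 alternative settings run per gene, and no gene named in the text that passed and was run under them changed direction. The number of members that rose was 2, or 3 with TMM scaling or median-centred libraries. The number that fell was 4, and went to 2 without an expression limit, with TMM scaling and with median-centred libraries, and to 1 without trend and robust moderation; leaving out a library gave 2 to 4. Without an expression limit 8 other ESCRT genes rose, and with curated transcripts alone 7 did; leaving out a library gave 8 to 10 that rose and 5 to 8 that fell. Of lysosome damage response genes 1 fell, in place of 2, without an expression limit, with curated transcripts alone, and without trend and robust moderation, and 1 to 2 fell when a library was left out. Over all tested genes, 3556 rose in the fit used throughout, 3657 without an expression limit and 2561 with curated transcripts alone. Falls numbered 4062 in that fit, 3802 without an expression limit, 3430 with curated transcripts and 3853 without trend and robust moderation. With TMM scaling 3930 rose and 3828 fell, and with median-centred libraries 3715 rose and 4060 fell. The number of genes tested depends on the expression limit and the transcripts used. The cause was not tested in these cases. Chmp3, which did not pass, had a log2 fold change of 0.01 without NT02 in place of -0.06. Leaving out a library leaves its group with 1, whose spread is then assumed to be that of the other group. TMM factors were computed from TPM by their published formula. No paired analysis was possible because the header does not settle the replicate numbers of the columns. TPM holds no depth, so precision rests on the 2 libraries per group.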
